A study of Caenorhabditis elegans with 4 samples.

Results

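The genes described here encode mitochondrial chaperones, mitochondrial proteases and regulators of the mitochondrial unfolded protein response of the nematode Caenorhabditis elegans. They are 10 named genes, taken by symbol from the 20392 genes of the count table, and all 10 passed the filter on low counts that left 15008 genes to test. The 3 chaperone genes are hsp-6, hsp-60 and dnj-10, the 3 protease genes are clpp-1, lonp-1 and spg-7, and the 4 regulator genes are atfs-1, ubl-5, dve-1 and haf-1. Members were listed by name and function, not by a threshold on a measured value, but with earlier results of these data known.

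Most mitochondrial proteins are made in the cytosol and imported unfolded, so the matrix depends on chaperones that fold them and on proteases that remove those that stay misfolded. In C. elegans the bZIP factor ATFS-1 is imported into healthy mitochondria and degraded there by the Lon protease. When import is impaired it enters the nucleus and raises chaperone transcripts, and reporters of hsp-6 and hsp-60 are the standard readout of that response in this animal. Its known requirements include the homeodomain protein DVE-1, the ubiquitin-like protein UBL-5, which binds DVE-1, and HAF-1, a peptide exporter of the mitochondrial inner membrane. Histone methylation by MET-2 is also known to take part, which is a different mark from the one addressed by this study.

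The study addressed the loss of lysine 36 methylation on histone H3 in whole first-stage (L1) larvae, by mutation of the methyltransferase gene met-1 and RNAi against the methyltransferase gene mes-4. The control group was strain N2, genotype wild type, on bacteria with the empty RNAi vector L4440. The other group was strain GW1183, genotype met-1-/-, on mes-4 RNAi. It is called the mutant group here for short, although the RNAi sets it apart as well. Both groups descended from parents kept on the RNAi bacteria for about 60 to 65 h at 20 °C, hatched without food for 18 h and were refed the same bacteria for 2 h 30 min. Each group had 2 libraries, each made from 5 µg of total RNA of a larval population with the ScriptSeq Complete Gold kit, which removes ribosomal RNA. The series text calls the samples of a group independent biological replicas. Strain, mutation and RNAi changed together, so their parts cannot be told apart, and the design holds no mitochondrial stressor.

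Library totals were 29081819 to 35106597 counts. The met-1 transcript was 32.8% lower and the mes-4 transcript 23.9% lower in mutant larvae, with no overlap between the groups. The edgeR adjusted p was 0.111 and 0.267, and DESeq2 called met-1 (adjusted p = 0.0039) but not mes-4 (adjusted p = 0.337). Reads from the mitochondrial genome made up 6.44% to 8.32% of a library, with overlap between the groups. Markers of the tissues of a larva were present, and some moved with the group. All 8 body wall muscle markers were higher on the fitted scale, but only 2 (25%) without overlap, against 22.7% of all tested genes. Their summed level was 8795 to 10430 CPM in wild type and 9844 to 12700 CPM in mutant larvae. CPM is a gene's count relative to the TMM-scaled library size. Of 17 germline and maternal markers, 14 were lower, with a median log2 fold change of -0.91 and summed levels of 185.3 to 239.9 CPM and 159.9 to 183.4 CPM. Without overlap, 9 of the 17 were lower (52.9%) and 2 higher (11.8%), against 22.2% and 22.7% of all tested genes. The epidermis markers rol-6 and bli-1, the intestine marker vit-2 and the germline marker nos-2 stayed under 1 CPM in every library. By DESeq2 the germline marker mex-6 was called lower (log2 fold change -1.85, adjusted p = 0.0197), and the muscle marker myo-3 (1.26, adjusted p = 0.00263) and the intestinal yolk protein gene vit-6 (3.43, adjusted p = 2.06e-07) higher. The 9 tested intestine markers, vit-6 included, had no common direction: 6 were below 0, with a median of -0.07. Without overlap, 3 were higher and 2 lower. Among these, act-5 was at -0.34 and mtl-2 at 2.59, neither called by DESeq2. The mtl-2 level was 10.07 and 11.96 CPM in wild type and 16.49 and 116.1 CPM in mutant larvae. In RNA of whole larvae, fewer cells of a type and less RNA per cell cannot be told apart, and the part of tissue makeup in the results below was not tested.

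Levels of different genes were compared as RPKM, CPM divided by the deposited gene length in kilobases. The chaperonin gene hsp-60 and the mitochondrial Hsp70 gene hsp-6 stood well above the rest. In wild type hsp-60 was at 532.1 ± 29.5 RPKM (SD, n = 2) and hsp-6 at 439.4 ± 17.9 RPKM, which put them at ranks 156 and 189 of the 20392 genes. The gene dnj-10, for a cochaperone of the mitochondrial Hsp70, followed at 114.9 ± 2.69 RPKM, then the protease gene spg-7 at 110.5 ± 9.73 RPKM. These neighbours overlapped in their libraries. Then came atfs-1 at 74.9 ± 2.23 RPKM and lonp-1 at 53.4 ± 5.00 RPKM. The order ended with dve-1 at 20.7 ± 7.57, clpp-1 at 18.8 ± 1.15, ubl-5 at 12.2 ± 1.14 and haf-1 at 8.55 ± 1.71 RPKM. Of these last genes, dve-1 and clpp-1 overlapped, and haf-1 was 62.3-fold below hsp-60. In mutant larvae the places 1 to 6 were held by the same genes. There lonp-1 was at 24.5 ± 2.23 RPKM, which moved it from rank 1948 to rank 4119 of all genes, and dnj-10, spg-7 and atfs-1 overlapped as neighbours. The last 4 genes also overlapped as neighbours in that group, with ubl-5, clpp-1, dve-1 and haf-1 between 11.2 and 16.0 RPKM on average.

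**Figure D1:**
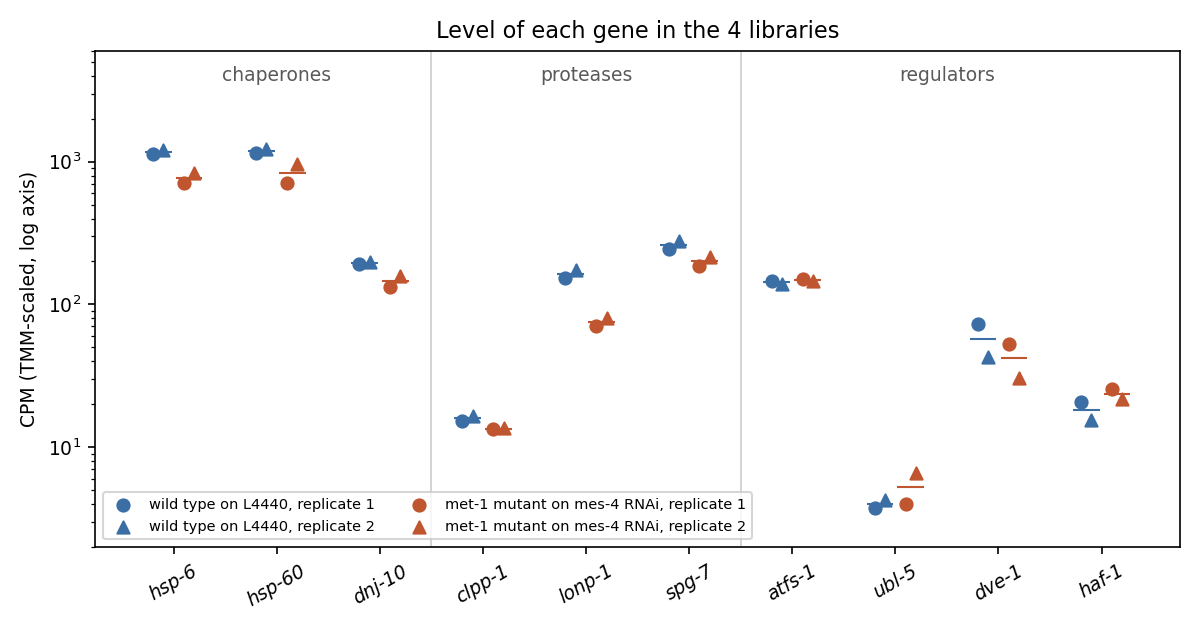
CPM of each gene (TMM-scaled, log axis) in the 4 libraries; circles are replicate 1, triangles replicate 2 and bars the group means. The chaperone and protease genes lie lower in both mutant libraries, lonp-1 most clearly at 70.1 and 79.8 CPM against 152.6 and 174.3 CPM.

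The chaperone and protease transcripts were lower in mutant larvae, and the regulator transcripts showed no common direction. The Lon protease gene lonp-1 had the largest difference of the 10 genes, being 54.1% lower. In 6 of the 10 genes both mutant libraries lay below both wild type libraries, against 22.2% of all tested genes and 28.4% of the 1884 genes with a mean of at least 100 CPM. In 2 genes, atfs-1 and haf-1, they lay above, against 22.7% of all tested genes and 10% of the genes with a mean of at least 100 CPM. The median log2 fold change of the 10 genes was -0.40, against 0.01 over all tested genes.

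Log2 fold changes were fitted across all genes with edgeR's quasi-likelihood test, p-values were adjusted by the Benjamini-Hochberg method, and the threshold was 0.05. With 2 libraries a group this test called 0 of the 10 genes and 0% of all genes. At an unadjusted p under 0.05 it counted 5 of the 10, all lower, against 6.82% of all genes counted as lower (7.74% higher) and 7.27% counted as lower among genes of at least 100 CPM. A second count test, DESeq2, called 2 of the 10 genes, lonp-1 and hsp-6, both lower, against 1.96% of all genes called lower and 2.28% among genes of at least 100 CPM. It called 655 genes in all (4.45%), 2.49% being called higher. limma-voom and limma run on the normalized table each called 0 of the 10. In what follows, "fell" is used of DESeq2 calls, and intervals are 95% intervals of the edgeR fit, not adjusted for the number of genes.

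Among the chaperones, hsp-6 encodes the mitochondrial Hsp70, which pulls proteins in through the import channel and folds them in the matrix. It was at 1132 and 1199 CPM in the wild type libraries and at 706 and 829 CPM in the mutant libraries. Both mutant libraries were low, and the gap between the groups was wider than the spread within either. The means were 1165 ± 47.5 and 767.1 ± 86.9 CPM (SD, n = 2), 34.2% lower, with a log2 fold change of -0.60 (SE 0.14, interval -0.95 to -0.26). The edgeR adjusted p was 0.158, and hsp-6 fell by DESeq2 (adjusted p = 0.00682). That call did not survive the loss of any library: its adjusted p was 0.216 without wild type replicate 1, 0.517 without wild type replicate 2, 0.515 without mutant replicate 1 and 0.0775 without mutant replicate 2. The log2 fold change stayed between -0.72 and -0.49 over all alternatives.

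The gene hsp-60 encodes the chaperonin of the mitochondrial matrix, in whose chamber imported proteins fold. It was at 1144 and 1237 CPM in wild type and at 707 and 966 CPM in mutant larvae. The groups did not overlap, but the mutant libraries differed from each other by more than the higher of them differed from the lower wild type library. The log2 fold change was -0.51 (SE 0.18, interval -0.98 to -0.04), 29.8% lower, with an edgeR adjusted p of 0.31 and a DESeq2 adjusted p of 0.165. Without mutant replicate 1 the edgeR value was -0.30, and it was -0.75 without replicate 2 of that group.

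The J-domain protein DNJ-10 stimulates the ATPase of the mitochondrial Hsp70. Its transcript was at 191.5 and 197.9 CPM in wild type and at 133.2 and 157.8 CPM in mutant larvae. The wild type libraries were close together and both mutant libraries lay below them. The log2 fold change was -0.42 (SE 0.13, interval -0.75 to -0.09), 25.3% lower, with an edgeR adjusted p of 0.246 and a DESeq2 adjusted p of 0.167. All 3 chaperone genes were therefore lower by 25.3% to 34.2%, and their summed level went from 2467 and 2634 CPM to 1545 and 1952 CPM.

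Among the proteases, lonp-1 encodes the Lon protease of the matrix, which degrades misfolded and oxidised proteins and, in C. elegans, imported ATFS-1. It was at 152.6 and 174.3 CPM in wild type and at 70.1 and 79.8 CPM in mutant larvae. The groups were far apart relative to the spread within each. The means were 163.5 ± 15.3 and 74.97 ± 6.84 CPM, 54.1% lower, with a log2 fold change of -1.12 (SE 0.13, interval -1.46 to -0.78). The edgeR adjusted p was 0.0687, and lonp-1 fell by DESeq2 (adjusted p = 2.78e-08). DESeq2 also called it with any 1 of the 4 libraries left out, with adjusted p from 0.000279 to 0.0127 and log2 fold changes from -1.22 to -1.03. edgeR called it without a filter on low counts (adjusted p = 0.0339). In rank by p, lonp-1 was 75th of 15008 genes in edgeR and 55th in DESeq2. Of the 1884 genes with a mean of at least 100 CPM, 3 had a log2 fold change as low as that of lonp-1, itself included.

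The gene spg-7 encodes an AAA protease of the inner membrane. It was at 245.8 and 278.5 CPM in wild type and at 185.1 and 216.4 CPM in mutant larvae. Both mutant libraries were lower, with a gap between the groups slightly narrower than the spread within each. Its log2 fold change was -0.38 (SE 0.14, interval -0.73 to -0.04), 23.4% lower, with an edgeR adjusted p of 0.306 and a DESeq2 adjusted p of 0.28.

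The gene clpp-1 encodes the proteolytic subunit of the ClpXP protease, known as a requirement of the response in C. elegans. It was at 15.2 and 16.6 CPM in wild type and at 13.3 and 13.5 CPM in mutant larvae, on 403 to 519 reads. The groups did not overlap, but the difference was small, a log2 fold change of -0.24 (SE 0.14, interval -0.60 to 0.11), and the counting error alone was 4.98% in the library with the fewest reads. The edgeR adjusted p was 0.513 and the DESeq2 adjusted p 0.848.

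Among the regulators, atfs-1 encodes the bZIP factor that switches the response on. Its transcript was at 145.6 and 139.6 CPM in wild type and at 151.8 and 146.5 CPM in mutant larvae. The 4 libraries were almost level, and although the groups did not overlap on this scale, they did overlap when libraries were scaled by their totals alone. The log2 fold change was 0.06 (SE 0.10), with an interval of -0.20 to 0.33, which corresponds to a change from -13.1% to 25.9%. The edgeR adjusted p was 0.844 and the DESeq2 adjusted p 0.991. The activity of ATFS-1 is set by where the protein goes, which was not measured here.

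The gene haf-1 encodes an ABC transporter of the inner membrane that exports peptides. It was at 20.6 and 15.5 CPM in wild type and at 25.6 and 21.8 CPM in mutant larvae. The mutant libraries were higher, by little in the closest pair. Its log2 fold change was 0.39 (SE 0.19, interval -0.10 to 0.88), and neither test called it (adjusted p 0.445 in edgeR and 0.634 in DESeq2). Leaving out replicate 2 of wild type gave 0.20 in edgeR, and leaving out replicate 1 gave 0.61. An annotated gene on the other strand, C30H6.9, shares 3.04% of the exon bases of haf-1, and the strand setting of the counting is not given in the sources used here. None of the other 9 genes shared exon bases with another annotated gene.

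The gene dve-1 encodes a homeodomain protein that gathers at open chromatin during the response. Its transcript was at 72.3 and 42.6 CPM in wild type and at 53.1 and 30.4 CPM in mutant larvae. The groups overlapped, and replicate 1 was higher than replicate 2 in both, 1.70-fold and 1.75-fold. Its log2 fold change was -0.46 (SE 0.36, interval -1.39 to 0.47), with adjusted p of 0.637 in edgeR and 0.744 in DESeq2. Leaving out 1 library moved it from -0.92 to -0.03.

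The gene ubl-5 encodes the ubiquitin-like protein that binds DVE-1, and at 330 bases it has the shortest gene model of the 10. It was at 3.75 and 4.28 CPM in wild type and at 3.99 and 6.54 CPM in mutant larvae, on 121 to 228 reads. One library, mutant replicate 2, stood above the others, and the other 3 were level. Its log2 fold change was 0.40 (SE 0.31, interval -0.39 to 1.18), with adjusted p of 0.633 in edgeR and 0.89 in DESeq2, and without that library it was close to 0. The groups overlapped on this scale and did not overlap when libraries were scaled by their totals alone.

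**Figure D2:**
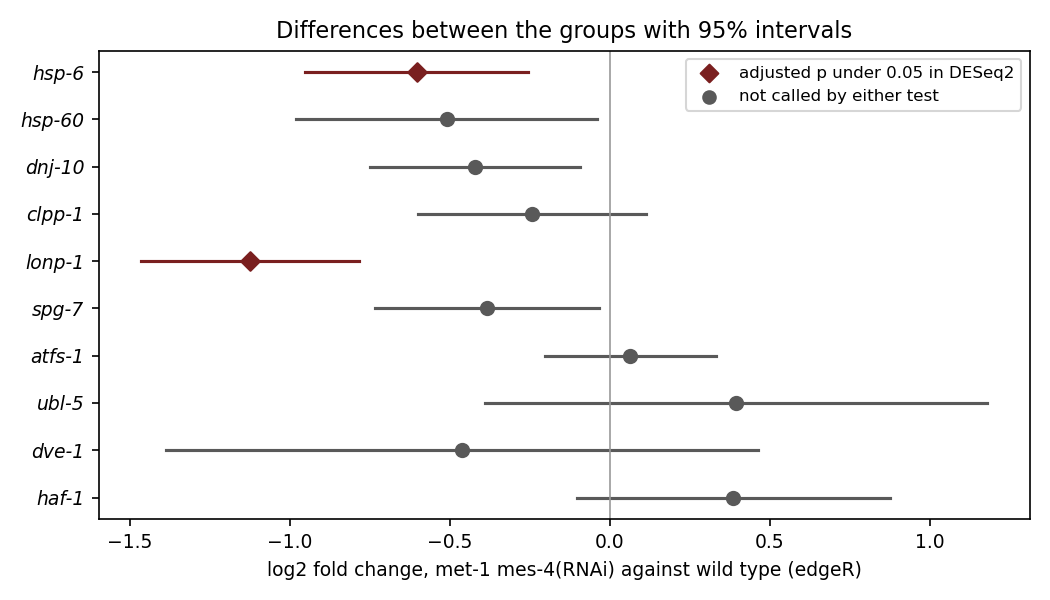
Log2 fold change of each gene, mutant against wild type, from the edgeR fit; lines are 95% intervals, and diamonds mark the genes that DESeq2 called. The intervals of hsp-6, hsp-60, dnj-10, lonp-1 and spg-7 lie below 0, and those of clpp-1 and all 4 regulators include 0.

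Ratios between genes within a library do not depend on how libraries are scaled. On the RPKM scale, hsp-6 and hsp-60 kept a similar ratio, at 0.83 and 0.82 in wild type and 0.84 and 0.72 in mutant larvae. The difference of lonp-1 exceeded that of the other genes, so that the ratio of hsp-6 to lonp-1 was 8.56 and 7.94 in wild type and 11.6 and 11.99 in mutant larvae. The ratio of spg-7 to lonp-1 was 2.08 and 2.06 against 3.41 and 3.50. Both ratios were higher in mutant larvae without overlap. Against atfs-1 the chaperone gene hsp-6 went from ratios of 5.58 and 6.17 to 3.34 and 4.06. For comparison, 3 other Hsp70 genes were chosen after their values were seen. The cytosolic hsp-1 had a log2 fold change of -0.07 (SE 0.13) and the endoplasmic reticulum gene hsp-3 one of 0.13 (SE 0.12), neither called, and hsp-4 of the endoplasmic reticulum was at -0.44 (SE 0.56). The ratio of hsp-6 to hsp-1 was 0.167 and 0.173 in wild type and 0.108 and 0.126 in mutant larvae. The ratio of hsp-6 to hsp-3 was 0.956 and 0.971 in wild type and 0.532 and 0.626 in mutant larvae. No p is given for these ratios, since with 2 libraries against 2 an exact permutation test cannot reach the threshold.

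The replicates of a group were not equally close for all genes. Between replicates 1 and 2 the 10 genes differed by -0.19 to 0.76 on the log2 CPM scale in wild type and by -0.71 to 0.80 in mutant larvae. The largest differences were those of dve-1 in wild type and of dve-1 and ubl-5 in mutant larvae.

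**Figure D3:**
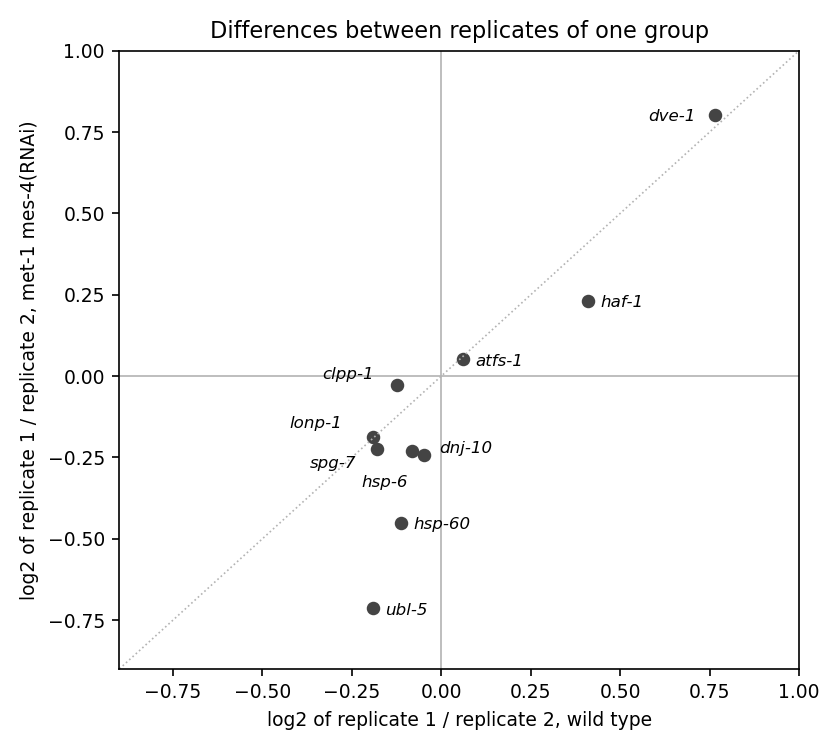
Log2 ratio of replicate 1 to replicate 2 in wild type (horizontal) and in mutant larvae (vertical) for the 10 genes; the dotted line marks equal ratios. The gene dve-1 lies near 0.8 on both axes, lonp-1 near -0.2 on both, and hsp-60 and ubl-5 differ more between the mutant libraries than between the wild type libraries.

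Genes of 11 related lists were mostly below 0 by small amounts. The lists held 210 tested genes besides the 10, from mitochondrial protein handling, ribosomes, dynamics and antioxidants, and also cytosolic chaperones, endoplasmic reticulum genes and haf transporters. Their median log2 fold change was -0.15, and 150 were below 0, that is 71.4% against 48.5% of all tested genes. Both mutant libraries lay below both wild type libraries in 39.5% of them and above in 9.05%, against 22.2% and 22.7% of all tested genes. Among genes of at least 100 CPM in general the shares were also uneven, 28.4% lower and 10% higher. Of those genes, 79.25% had a log2 fold change no higher than that of atfs-1 (0.065), against 57.05% of all tested genes. The part of expression level in the shares below 0, here and in the single lists, was not tested. edgeR called 0 of the 210, and at an unadjusted p under 0.05 it counted 24 lower and 5 higher, where the background is 6.82% and 7.74% of all genes. DESeq2 called 3, all lower, a share near the 1.96% of all genes that it called lower.

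The 3 calls were fzo-1, pink-1 and trx-2, and none of them held in every run that left out 1 library. DESeq2 called 0 genes of these lists without either wild type replicate or without mutant replicate 1, and 2 (1 higher and 1 lower) without mutant replicate 2. The gene fzo-1 encodes the mitofusin that fuses outer membranes, and it went from 86.7 and 88.7 CPM to 61.0 and 57.4 CPM (log2 fold change -0.57, SE 0.11, DESeq2 adjusted p = 0.0106). The kinase gene pink-1, which marks damaged mitochondria for removal, went from 46.8 and 41.0 CPM to 30.4 and 27.8 CPM (-0.60, SE 0.14, DESeq2 adjusted p = 0.0402). The gene trx-2 encodes the mitochondrial thioredoxin and went from 24.3 and 28.2 CPM to 12.76 and 14.9 CPM (-0.93, SE 0.16, DESeq2 adjusted p = 0.00212). In each of the 3 the groups did not overlap. The fusion gene eat-3 was at -0.29 and the reductase gene trxr-2 at -0.57, and neither was called.

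In the lists nearest to the 10 genes, 8 of 10 other chaperone and cochaperone genes were below 0, with a median of -0.24, and 6 of 10 other protease and peptidase genes, with a median of -0.19. Examples are mppb-1, the beta subunit of the processing peptidase that removes targeting sequences, at -0.55 (SE 0.15), and ppgn-1, a paralog of spg-7, at -0.38 (SE 0.15). Not all members were lower. The mitochondrial Hsp90 gene trap-1 was at 0.22, dnj-15 at 0.26 and the inner membrane peptidase gene immp-1 at 0.43, while C47E12.2 was at -0.57. Of 16 import genes 13 were below 0, with a median of -0.27. They include timm-17B.1, a channel subunit, at -0.47, scpl-4, the homolog of Tim50, at -0.42, and gop-3, the homolog of Sam50, at -0.49. None of these passed edgeR's or DESeq2's threshold.

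Of the 69 genes of mitochondrial ribosomal proteins, 61 were below 0, with a median of -0.20. In 32 of them both mutant libraries lay below both wild type libraries, 46.4% against 22.2% of all tested genes, and in 0 they lay above. The lowest, mrps-14, was at -0.60, mrps-27 at -0.33 and mrps-7 at -0.42, and neither test called any of the 69. At an unadjusted p under 0.05 edgeR counted 7 of the 69, all lower, against 6.82% of all tested genes counted as lower. The 12 protein genes of the mitochondrial genome lay elsewhere. Their median was 0.09, with 5 below 0, the extremes being WBGene00010966 at -0.24 and WBGene00010958 at 0.52, and COX3, a cytochrome c oxidase subunit gene, at 0.32.

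Of 23 other regulators of the response, 14 were below 0, with a median of -0.05 and 0 calls by either test. Where 6.82% of all tested genes were lower at an unadjusted p under 0.05, edgeR counted 3 of the 23, all lower. These were the sphingosine kinase gene sphk-1 at -0.42 (SE 0.13), the eIF2alpha kinase gene gcn-2 at -0.37 (SE 0.11) and met-2, a methyltransferase gene for lysine 9 of histone H3, at -0.42 (SE 0.13). The last was at 164.4 and 143.7 CPM in wild type and 123.2 and 107.9 CPM in mutant larvae, without overlap. The demethylase genes of the response, jmjd-1.2 and jmjd-3.1, were at 0.10 and 0.03, and lin-65, which acts with met-2, was at 0.06.

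Lists of other compartments and functions gave mixed values. Of 18 cytosolic chaperone genes 13 were below 0, with a median of -0.07, and in 8 (44.4%) both mutant libraries lay below both wild type libraries. That share was 40% in the lists of other mitochondrial chaperones and of other proteases and 37.5% in the import list. It was 22.2% over all tested genes and 28.4% over genes of at least 100 CPM. The chaperonin genes cct-6 and cct-1 were at -0.41 and -0.25, and the inducible hsp-70 was at 1.71 on low and uneven levels, 3.54 and 1.85 CPM against 13.9 and 3.70 CPM. Of 20 endoplasmic reticulum genes 8 were below 0, with a median of 0.06, pdi-2 being at 0.32, cnx-1 at -0.29 and ero-1 at -0.24. Superoxide dismutase and antioxidant genes were mixed, with 5 of 9 below 0 and a median of -0.18. In that list the mitochondrial sod-2 was at -0.52 (SE 0.17) and the catalase gene ctl-2 at 0.71 (SE 0.21), and trx-2 above was its only call. In the haf family, which includes haf-1, 6 of 9 tested genes were below 0 with a median of -0.13, hmt-1 at -0.57 and haf-7 at 0.47, with 0 calls.

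**Figure D4:**
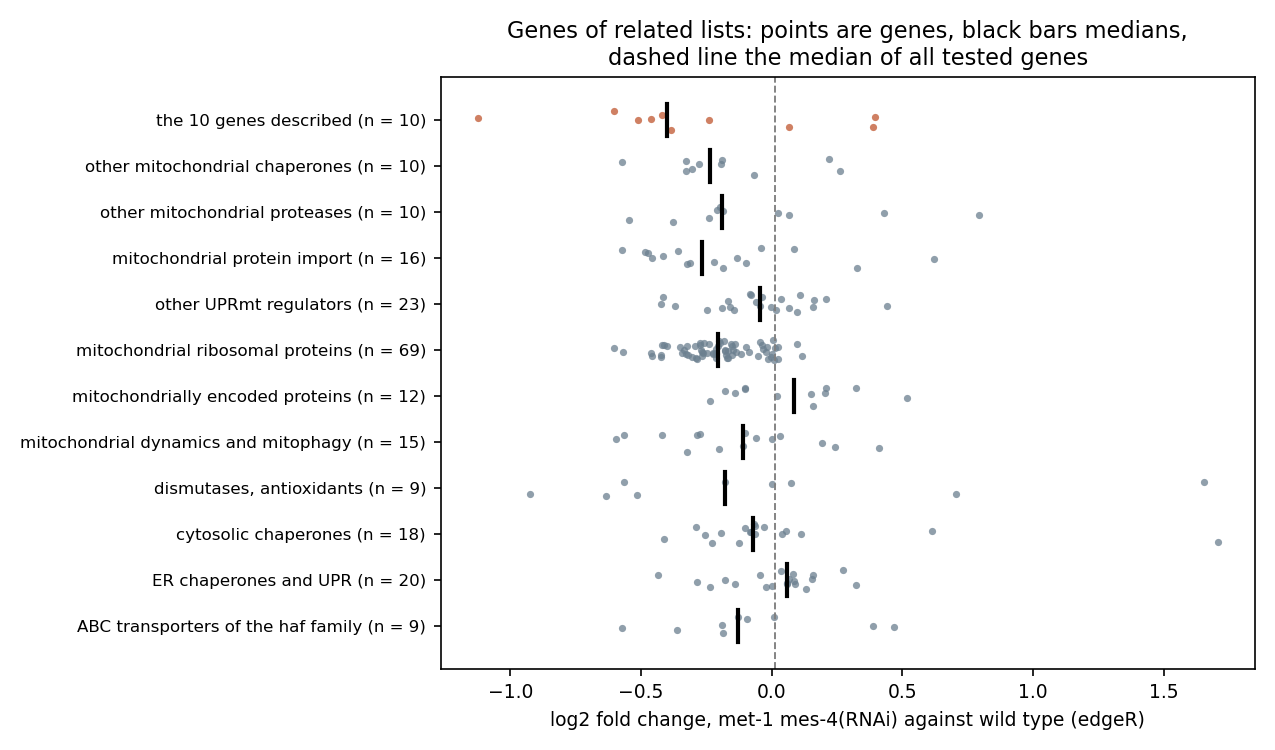
Log2 fold changes (edgeR) of the 10 genes and of the tested genes of 11 related lists; points are genes, black bars medians, and the dashed line is the median of all tested genes, 0.01. The medians of the mitochondrial protein handling lists lie to the left of the line, as do those of the cytosolic chaperones (-0.07) and the haf transporters (-0.13). Those of the endoplasmic reticulum list (0.06) and of the mitochondrially encoded genes (0.09) lie to its right.

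The profile over the 4 libraries gave another view of hsp-6 and hsp-60. Likeness was the root mean square difference between centred log2 CPM values over 4 libraries, among 9782 genes with a mean of at least 5 CPM. The genes most like hsp-6 were eaf-1 (0.0193), cdc-48.3 (0.0211) and ints-4 (0.022), all on chromosome I. Those most like hsp-60 were Y54G11A.7 (0.017), ZC477.3 (0.0221) and mrpl-23 (0.0244). hsp-60 and hsp-6 differed from each other by 0.0879, which placed hsp-60 at position 163 in the order for hsp-6. With 4 libraries many genes share a profile, and nothing further is read from these names.

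The genes lie apart in the genome, 3 on chromosome I (lonp-1, spg-7 and ubl-5), 2 each on III (hsp-60 and dnj-10) and V (hsp-6 and atfs-1), and 1 each on II (clpp-1), IV (haf-1) and X (dve-1). Their nearest protein-coding neighbours, a set added after the values of the 10 genes were seen, numbered 20, of which 19 were tested. Genes that overlap a member were not counted as neighbours. Of the 19, 14 were below 0, against 48.5% of all tested genes, a background not matched for expression level. Their median was -0.26, and the highest was at 0.85. Both neighbours of lonp-1 were also lower. The gene ttc-1 was at 9.38 and 11.5 CPM in wild type and 4.65 and 6.29 CPM in mutant larvae, and spcs-1, a signal peptidase subunit gene, was at 26.7 and 31.9 CPM against 15.2 and 20.7 CPM. Their log2 fold changes were -0.93 (SE 0.24) and -0.71 (SE 0.20), with adjusted p in edgeR of 0.186 and 0.221 and in DESeq2 of 0.0675 and 0.0895, so neither was called. All 3 genes are annotated on the same strand. Both neighbours of spg-7 were lower as well, msh-6 at -0.42 and Y47G6A.9 at -0.40. The neighbour of hsp-60 on the opposite strand is Y22D7AL.10, which encodes the mitochondrial cochaperonin of the GroES type. It was at 115.3 and 130.2 CPM in wild type and at 80.3 and 118.1 CPM in mutant larvae, lowest in the same library as hsp-60, with a log2 fold change of -0.31 (SE 0.21). DESeq2 called 1 of the 19 neighbours, where it called 1.96% of all genes lower and 2.49% higher. The one called was ints-2 beside atfs-1, at -0.71 (adjusted p = 0.0263), while atfs-1 itself was level.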

How the data were processed

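RNA-seq was analysed for 2 groups of 2 libraries. The authors deposited raw counts per gene beside gene lengths, and separately normalized log2 values. Per the submitters' processing notes the build was ce10. Sources used here do not give the aligner, counter, annotation or strand setting. Each deposited log2 value was equal to log2(count × library factor + 8), as found from the numbers themselves. Symbols (matched for 19182 of 20392 identifiers), chromosomes, strands and neighbours were taken from Ensembl's WBcel235 annotation, another build, so coordinates are not printed.

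In R 4.3.3, filterByExpr of edgeR 4.0.16 kept 15008 genes and TMM gave factors of 0.962 to 1.04. CPM and RPKM use the scaled library sizes. Groups were compared by edgeR's quasi-likelihood test with default settings and no covariate, adjusted over all 15008 genes. Standard errors are |log2 fold change| over the root of the F statistic. DESeq2 1.42.0, limma 3.58.1, other scalings and filters, a replicate block and leaving out each library were alternatives. DESeq2 gave NA as adjusted p for 291 genes. Scripts were tested on simulated counts. Counting error in the library with the fewest reads was 0.684% for hsp-6 and 9.09% for ubl-5. The labels do not say that replicate numbers mark shared batches. P-values measure the spread between these libraries. Figures were drawn with matplotlib 3.10.9.

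The members and lists were chosen with earlier results of these data known. Named genes were the 10 members, up to 3 genes of smallest p in each list, every list gene called by either count test, and the 3 genes most like hsp-6 and hsp-60. The genes hsp-1, hsp-3, hsp-4, sod-2, jmjd-1.2, jmjd-3.1, lin-65 and the neighbouring genes were chosen after their values were seen. In the lists, 10 symbols found no match. Protein genes of the mitochondrial genome were taken by chromosome.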

Additional observations from a re-analysis of the deposited data

How the results depend on the processing

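The direction of 9 of the 10 genes was the same under every alternative run; ubl-5 was the exception, at -0.004 (edgeR) and -0.007 (DESeq2) without mutant replicate 2 and at most 0.707 without mutant replicate 1. Of 179 alternative values for the 10 genes, 163 kept both their direction and their side of the threshold. Another 14 passed it only in the alternative, and 2 reversed in direction without passing it. The number of calls depended on the test: edgeR called 0 genes as reported, 128 without a filter, of which 1 was a member (lonp-1, -1.136), 2 with a filter of 5 CPM (which left ubl-5 out), and 3 with its newer dispersion method. DESeq2 called 655 genes, 2 of the 10 (hsp-6 at -0.604, lonp-1 at -1.126) and 3 of the related lists. The cause was not tested. Other scalings, limma-voom and limma on the normalized table called 0 genes.

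With 1 library left out, the lone library of a group being assumed to vary like the other group, edgeR called 0 to 27 genes, the most without mutant replicate 1 (24 higher, 3 lower), and 0 of the 10. DESeq2 called 199 and 154 genes without wild type replicates 1 and 2 and 211 and 173 without mutant replicates 1 and 2, each time 1 of the 10 (lonp-1, in that order at -1.224, -1.027, -1.038 and -1.221) and 0 to 2 of the related lists. The median of the 10 genes ranged from -0.376 to -0.29 in edgeR and from -0.38 to -0.293 in DESeq2, nearest to 0 without mutant replicate 1. The newer dispersion method and the DESeq2 runs without a library were chosen after seeing the data.

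With the replicate number as a block, edgeR called 3047 genes (1540 higher, 1507 lower), 7 of the 10 and 59 of the related lists. The 7 were hsp-6 (-0.607), hsp-60 (-0.526), dnj-10 (-0.425), lonp-1 (-1.125), spg-7 (-0.387), dve-1 (-0.464) and haf-1 (0.395). Replicate differences of the groups correlated at 0.646 across genes, but with 2 pairs and no label of a shared batch the numbers do not establish a pairing. Depth limits ubl-5 most, at 121 to 228 reads.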
